A study of Homo sapiens with 16 samples.

Results

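The Toll-like receptors TLR1, TLR2, TLR4, TLR5, TLR6 and TLR8, the adaptors MYD88, TICAM1 and TIRAP, and the kinase-like regulator IRAK3 were followed in U937 cells during exposure to UNBS1450, a semi-synthetic cardiac glycoside, one of the class of compounds that block Na+/K+-ATPase. These 10 genes were taken by symbol, with every spot of each, and make up 35 of the 28970 spots that carry a single gene and 10 of the 17329 genes on the array. The group was chosen by the measured ratios of TLR2 at 6 and 9 h, already known to be high, so its values at those hours, and whether they met the thresholds of a call, are given as a description and not as evidence. Each Toll-like receptor senses a class of microbial molecule. TLR2 binds bacterial lipoproteins as a heterodimer with TLR1 or TLR6, TLR4 binds lipopolysaccharide, TLR5 flagellin, and TLR8, inside endosomes, single-stranded RNA. The occupied receptors recruit MYD88 directly or through TIRAP, or, in the case of TLR3 and TLR4, TICAM1, and these adaptors lead to NF-kB and the interferon regulatory factors. Monocytes and macrophages carry many of these receptors and answer through them with inflammatory cytokines.

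U937 is a human line from a histiocytic lymphoma with features of the monocyte lineage, and a single line of this kind stands for no donor or tissue. At each of 0, 3, 6 and 9 h, cells treated with 20 nM UNBS1450 were set against a separate control culture of the same hour, on 4 two-colour arrays per hour and 16 in all. Replicates 1 and 2 had the treated RNA in Cy5, and replicates 3 and 4 had it in Cy3. The labels name the agent at 0 h as well, whereas the methods give no treatment at that hour, so the 0 h arrays serve as the background of the measurement. Every value below is a log2 ratio of treated over control RNA, in which 0 means no difference and 1 a doubling. With total RNA from whole cultures, a smaller share of cells that carry a transcript and less of it per cell cannot be told apart. The ratios hold no intensity, so neither the level of a gene nor the presence of monocyte markers could be checked, and no spot could be judged against its background.

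The spread of the ratios over all spots was 0.42 (SD) on the 9 h array of replicate 4, against 0.20 to 0.30 on the other 15 arrays, and the values of that array are given beside the means it moves most. Arrays of opposite dye orientation at one hour correlated between −0.27 and 0.16 across the spots with a single gene, and arrays of the same orientation between 0.049 and 0.61. Of 12 measured monocyte and myeloid markers, 3 had a mean ratio above 0 and 9 below 0 at 9 h, with a median of −0.06. Among them CEBPA had the smallest p at 9 h, with −0.53, −0.38, −0.10 and −0.78 in replicates 1 to 4. The CEBPA mean was −0.45 (adjusted p = 0.0919 from limma), −0.36 over its 3 spots and −0.33 without replicate 4. CD4 stood at −0.10 and LYZ at −0.31, with −1.69 in replicate 2. The 7 measured lymphocyte markers had a median of 0.03, with CD79A at −0.15 and CD3D and CD3G at 0.06 each. None of these markers passed the test at any hour, beside 0.75% of all genes at 9 h. Their part in the values below was not tested.

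The stretches just upstream of 3 members are shown because TLR2 and TLR4, on their spots of highest F, are the receptors with the highest mean ratios at 9 h and TICAM1 is the member with the lowest. They are the 250 bases before the annotated start of each gene, from the RefSeq table of build GRCh38.p14, written 5′ to 3′ on the strand of the gene. TLR2 lies at chr4:153684030-153684279 (plus strand), TLR4 at chr9:117704153-117704402 (plus strand) and TICAM1 at chr19:4831713-4831962 (minus strand). Capitals mark matches, on either strand, to a kB element (GGACTTTCC, the letters bound by NF-kB dimers), an Sp1 box (GGGCGG) or the core of a PU.1 site (GAGGAA).
TLR2: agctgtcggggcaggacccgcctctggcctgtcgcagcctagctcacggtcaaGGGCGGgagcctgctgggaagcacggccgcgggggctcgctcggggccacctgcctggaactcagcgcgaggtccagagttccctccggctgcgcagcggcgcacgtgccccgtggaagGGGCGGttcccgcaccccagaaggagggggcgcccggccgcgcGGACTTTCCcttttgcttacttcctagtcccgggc
TLR4: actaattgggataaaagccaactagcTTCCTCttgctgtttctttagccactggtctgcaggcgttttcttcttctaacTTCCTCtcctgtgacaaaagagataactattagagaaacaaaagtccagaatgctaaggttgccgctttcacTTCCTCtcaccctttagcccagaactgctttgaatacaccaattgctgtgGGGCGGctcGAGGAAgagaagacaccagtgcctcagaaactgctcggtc
TICAM1: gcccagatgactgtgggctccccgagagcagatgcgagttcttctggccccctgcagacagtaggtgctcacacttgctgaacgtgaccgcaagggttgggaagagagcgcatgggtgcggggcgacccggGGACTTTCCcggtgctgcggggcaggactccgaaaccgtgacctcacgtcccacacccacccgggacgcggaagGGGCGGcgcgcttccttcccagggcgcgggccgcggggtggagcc

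The table held a promoter for 8 of the 10 members. The kB letters stood upstream of TLR2, from base −35 to −27, and of TICAM1, from −119 to −111, and in 0.333% of the 35116 promoters searched over the same length. The Sp1 box stood upstream of 6 members (42.6% of all promoters) and the PU.1 core upstream of TLR4, where it occurred at 4 places, TLR6 and MYD88 (23.6% of all promoters). The matches shown do not overlap, and positions count back from −1, the base before the annotated start. On their spots of highest F, TLR2 and TICAM1, the 2 members with the kB letters, had mean ratios on opposite sides of 0 at 9 h. The second TICAM1 spot had arrays on both sides of 0 at that hour. The TLR2 value at 9 h chose the group, and any link between these letters and the ratios was not tested. A match describes the sequence and shows no binding.

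TLR2 (chr4:153684280-153710637, gene 7097, transcript NM_003264) was represented by 10 spots, which did not all give the same account. On 9 of the spots, the mean ratios of replicates 1 to 4 were 0.28, 0.14, 0.37 and 1.15 at 9 h, a mean of 0.48 with an SD of 0.45 between arrays. The array of replicate 4 thus stood far above the others, and without it the mean of the 9 spots at 9 h was 0.26. These 9 spots agreed closely on each array, with an SD between spots of 0.017 to 0.079 and a median of 0.042, so nearly all of the spread lay between arrays. The remaining spot, 39317, gave 0.48, 0.40, 0.53 and 0.54 at 9 h, a mean of 0.49 with an SD of 0.064. Both sets of spots averaged a ratio of about the same size at 9 h, fold changes of 1.40 each, but only spot 39317 gave it evenly on the 4 arrays.

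At 6 h the 9 spots averaged 0.26, −0.0052, 0.31 and 0.68 in replicates 1 to 4 (mean 0.31, SD 0.28), and spot 39317 gave 0.58, 0.034, 0.35 and 0.75 (mean 0.43, SD 0.31). Both accounts placed replicate 4 highest and replicate 2 close to 0. At 3 h the 9 spots stood at 0.0051, −0.07, −0.10 and 0.03, and at 0 h at 0.12, 0.13, 0.08 and 0.07, so that all 4 arrays at 0 h lay slightly above 0 and 2 of 4 at 3 h below it. Spot 39317 gave −0.05, 0.02, −0.18 and −0.24 at 3 h, and 0.19, 0.17, −0.0041 and −0.23 at 0 h. At 0 and 3 h, its values in replicate 4 were the lowest of the 10 spots. Every 9 h value exceeded every 0 h value both on spot 39317 and on the mean of the 10 spots, as was so for 2.78 and 2.18% of all genes, and nothing is read from this for TLR2.

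**Figure D1:**
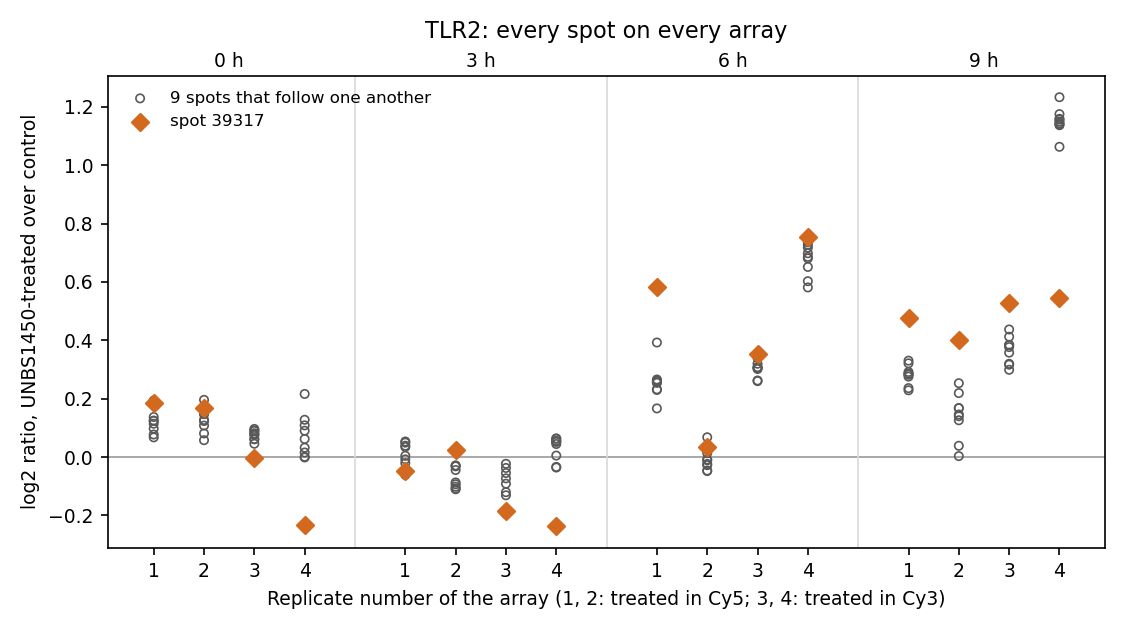
Log2 ratio of treated over control RNA (y axis) of all 10 TLR2 spots on each of the 16 arrays (x axis, replicates 1 to 4 within 0, 3, 6 and 9 h). Open circles are the 9 spots that follow one another and diamonds spot 39317, which lies at 0.54 on the 9 h array of replicate 4, where the others average 1.15.

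The distance of each TLR2 spot from the median spot, as a root mean square over the 16 arrays, was 0.032 to 0.064 for the 9 spots and 0.22 for spot 39317. The correlation with the median of the other spots over the same arrays was 0.978 to 0.995 for the 9 spots and 0.73 for spot 39317, where the arrays share hours, dyes and replicate numbers. The division into spots that go together and spots that stand apart was made after their values were seen. All 10 spots carry the same transcript accession, and the sources used here do not say whether they hold the same probe. Of the 10, spot 39317 had the largest F-statistic, here taken across 3, 6 and 9 h, the rule by which the study picks 1 spot per gene. On this spot TLR2 met the thresholds of a call at 9 h, with the spread estimated over all 16 arrays. With the mean of the 10 spots (0.48 at 9 h, SD 0.41) TLR2 was not called, and it was not called on spot 39317 either when the 9 h array of replicate 4 was left out (0.47). At hours that did not choose it, TLR2 did not pass the test, with 0.03 on spot 39317 at 0 h (adjusted p = 0.995 from limma) and −0.11 at 3 h (adjusted p = 1.00 from limma). Its ratio at 3 h was 0.14 below that at 0 h (standard error 0.13, adjusted p = 0.822 from limma).

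TLR1 and TLR6 encode the partners with which TLR2 recognises triacylated and diacylated lipoproteins, and they lie next to each other on chromosome 4 with TLR10. TLR1 (chr4:38787569-38805644, 1 spot) gave 0.08, −0.04, 0.19 and 0.71 at 9 h in replicates 1 to 4, averaging 0.24 ± 0.33 (SD over 4 arrays, adjusted p = 0.203 from limma). At 6 h all 4 arrays lay above 0, at 0.09, 0.06, 0.10 and 0.39 (mean 0.16, adjusted p = 0.661 from limma). Replicate 4 again gave the highest ratio, and without it the TLR1 mean was 0.08 at 6 h and 0.08 at 9 h. TLR6 (chr4:38822897-38868390, 2 spots) gave 0.29, −0.15, 0.16 and 0.50 at 9 h on its spot of higher F (mean 0.20 ± 0.27, SD, n = 4 arrays, adjusted p = 0.190 from limma). The other TLR6 spot gave −0.15, −0.42, 0.20 and 0.30 at 9 h, so that the spots differed in sign on replicate 1 and both lay below 0 on replicate 2. The mean of the 2 TLR6 spots was 0.09 at 9 h. Neither partner passed the test at any hour.

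TLR4 (chr9:117704403-117724735, gene 7099, transcript NM_138554), the lipopolysaccharide receptor, had 12 spots. On 10 of them the mean ratios of replicates 1 to 4 at 9 h were 0.03, 0.10, 0.07 and 0.64 (mean 0.21, SD 0.29), and without replicate 4 the mean was 0.07. As for TLR2, the array of replicate 4 thus carried most of the mean. The 10 spots had a median SD between spots of 0.070 on an array. Spot 17810 gave 0.42, 0.35, 0.13 and 0.08 at 9 h, highest where the other spots were low and low where they were highest. Spot 20332 gave −0.02, 0.03, −0.01 and −0.12 at 9 h. These 2 spots lay 0.26 and 0.22 from the median spot over the 16 arrays, against 0.051 to 0.11 for the other 10.

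Spot 17810 had the highest F-statistic of the TLR4 spots, and by it TLR4 stood at 0.24 at 6 h (adjusted p = 0.529 from limma) and 0.25 at 9 h (adjusted p = 0.118 from limma, standard error 0.080), above 0 on all 4 arrays at both hours. On that spot the ratio also ran with dye orientation at 0 h, with 0.26 and 0.25 in replicates 1 and 2 and −0.04 and −0.12 in replicates 3 and 4. The 10 spots together stood at −0.0090 at 0 h, −0.07 at 3 h and 0.07 at 6 h. At 6 h they were below 0 in replicates 1 and 2 (−0.07 and −0.11) and above 0 in replicates 3 and 4 (0.16 and 0.32). Over all 12 spots the mean at 9 h was 0.19 (SD 0.22, adjusted p = 0.170 from limma). TLR4 did not pass the test with any of its spots.

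**Figure D2:**
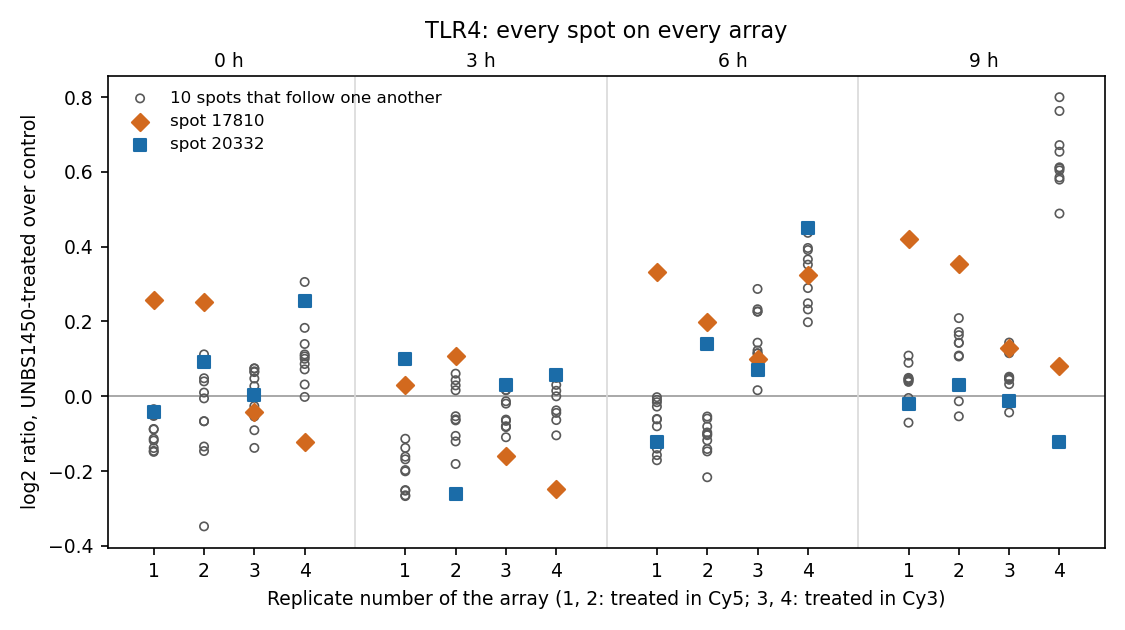
Log2 ratio of treated over control RNA (y axis) of all 12 TLR4 spots on each of the 16 arrays (x axis, replicates 1 to 4 within 0, 3, 6 and 9 h). Open circles are the 10 spots that follow one another, diamonds spot 17810 and squares spot 20332, and the 10 spots average 0.64 on the 9 h array of replicate 4, against 0.08 and −0.12 for the other spots there.

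TLR5 and TLR8 stayed close to 0 at every hour. TLR5 (chr1:223109404-223143248, 1 spot) had means of −0.05, 0.0023, 0.06 and −0.04 from 0 to 9 h (adjusted p = 0.727 from limma at 9 h). Its values at 9 h were −0.10, −0.0060, 0.02 and −0.08. TLR8 (chrX:12906620-12923169, 1 spot) had means of −0.04, 0.02, −0.05 and 0.0061 from 0 to 9 h (adjusted p = 0.981 from limma at 9 h), with arrays on both sides of 0 at each of the 4 hours. The array of replicate 4 at 9 h gave −0.08 for TLR5 and 0.16 for TLR8, the highest TLR8 value of that hour.

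MYD88 (chr3:38138661-38143022, 2 spots), the adaptor of nearly all Toll-like receptors and of the interleukin-1 receptor family, lay below 0 on all 4 arrays at 9 h, at −0.24, −0.05, −0.12 and −0.08 on its spot of higher F (mean −0.12, adjusted p = 0.596 from limma). At 6 h it gave −0.61, −0.01, −0.10 and −0.38 (mean −0.28, standard error 0.10, adjusted p = 0.529 from limma). A mean of like size was measured at 0 h, where the methods give no treatment, with −0.42, −0.56, −0.11 and −0.06 on the arrays (mean −0.29, adjusted p = 0.873 from limma). At 3 h the values were −0.17, 0.02, 0.23 and 0.30. The 2 spots of MYD88 followed each other at 0, 3 and 6 h, apart from −0.61 and −0.32 in replicate 1 at 6 h. At 9 h the second spot had 0.20 in replicate 4, and the mean over both spots was −0.08. Its ratio at 9 h was 0.16 above that at 0 h (standard error 0.14, adjusted p = 0.719 from limma), and its ratio at 6 h differed from that at 0 h by 0.0094 (adjusted p = 1.00 from limma). MYD88 was called at 6 h in 1 of 22 alternative analyses, when replicate 2 was left out and a dye coefficient added.

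TIRAP (chr11:126283093-126294933, 2 spots) bridges MYD88 to TLR2 and TLR4 at the plasma membrane. Its spot of higher F had a mean of −0.10 at 6 h, with −0.23, −0.00012, −0.15 and −0.02 on the arrays, and of −0.04 at 9 h (adjusted p = 0.790 from limma). The other spot had 0.38 in replicate 3 and 0.24 in replicate 4 at 9 h, so that the mean of the 2 spots was 0.05, of the other sign.

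TICAM1 (chr19:4815932-4831712, 2 spots), also called TRIF, is the adaptor of TLR3 and of the endosomal arm of TLR4 and leads to interferon beta. Its spot of higher F, 38384, lay below 0 on all 4 arrays at 9 h, at −0.17, −0.16, −0.35 and −1.42 (mean −0.53 ± 0.60, SD, n = 4 arrays, adjusted p = 0.100 from limma). Replicate 4 again held the extreme, and without it the mean was −0.23. All 4 values at 9 h lay below the values of the same spot at 0 h, which were 0.18, 0.21, 0.09 and 0.0096, as was so for 3.13% of all genes. Between those hours the ratio differed by −0.65 (standard error 0.23, adjusted p = 0.545 from limma). At 6 h the spot gave 0.28, −0.16, −0.03 and −0.49, with no common direction. The second spot, 21587, gave −0.05, 0.10, −0.02 and 0.06 at 9 h (mean 0.02, adjusted p = 0.928 from limma), and the mean of the 2 spots was −0.25 (SD 0.29, adjusted p = 0.105 from limma). TICAM1 was called at 9 h in 4 of 22 alternative analyses, among them those with a dye coefficient over all arrays.

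IRAK3 (chr12:66189214-66254622, 2 spots), also called IRAK-M, is a kinase-like protein of monocytes that dampens signalling from MYD88. Its spot of higher F, 25557, gave 0.11, −0.02, 0.41 and 0.82 at 9 h (mean 0.33 ± 0.38, SD, n = 4 arrays, adjusted p = 0.104 from limma). At 6 h it lay above 0 on all 4 arrays, at 0.04, 0.14, 0.26 and 0.48 (mean 0.23, adjusted p = 0.549 from limma). It also lay above 0 on all 4 arrays at 0 h, with a mean of 0.13. The other spot, 27660, gave −0.0042, 0.14, 0.12 and −0.22 at 9 h (mean 0.0084, adjusted p = 0.972 from limma), and on the array of replicate 4 the spots were thus on opposite sides of 0. The mean of both was 0.17 (adjusted p = 0.0998 from limma). Without replicate 4 the higher-F spot had a mean of 0.17 at 9 h. IRAK3 was called at 9 h in 1 of 22 alternative analyses, without replicate 2 and with a dye coefficient.

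**Figure D3:**
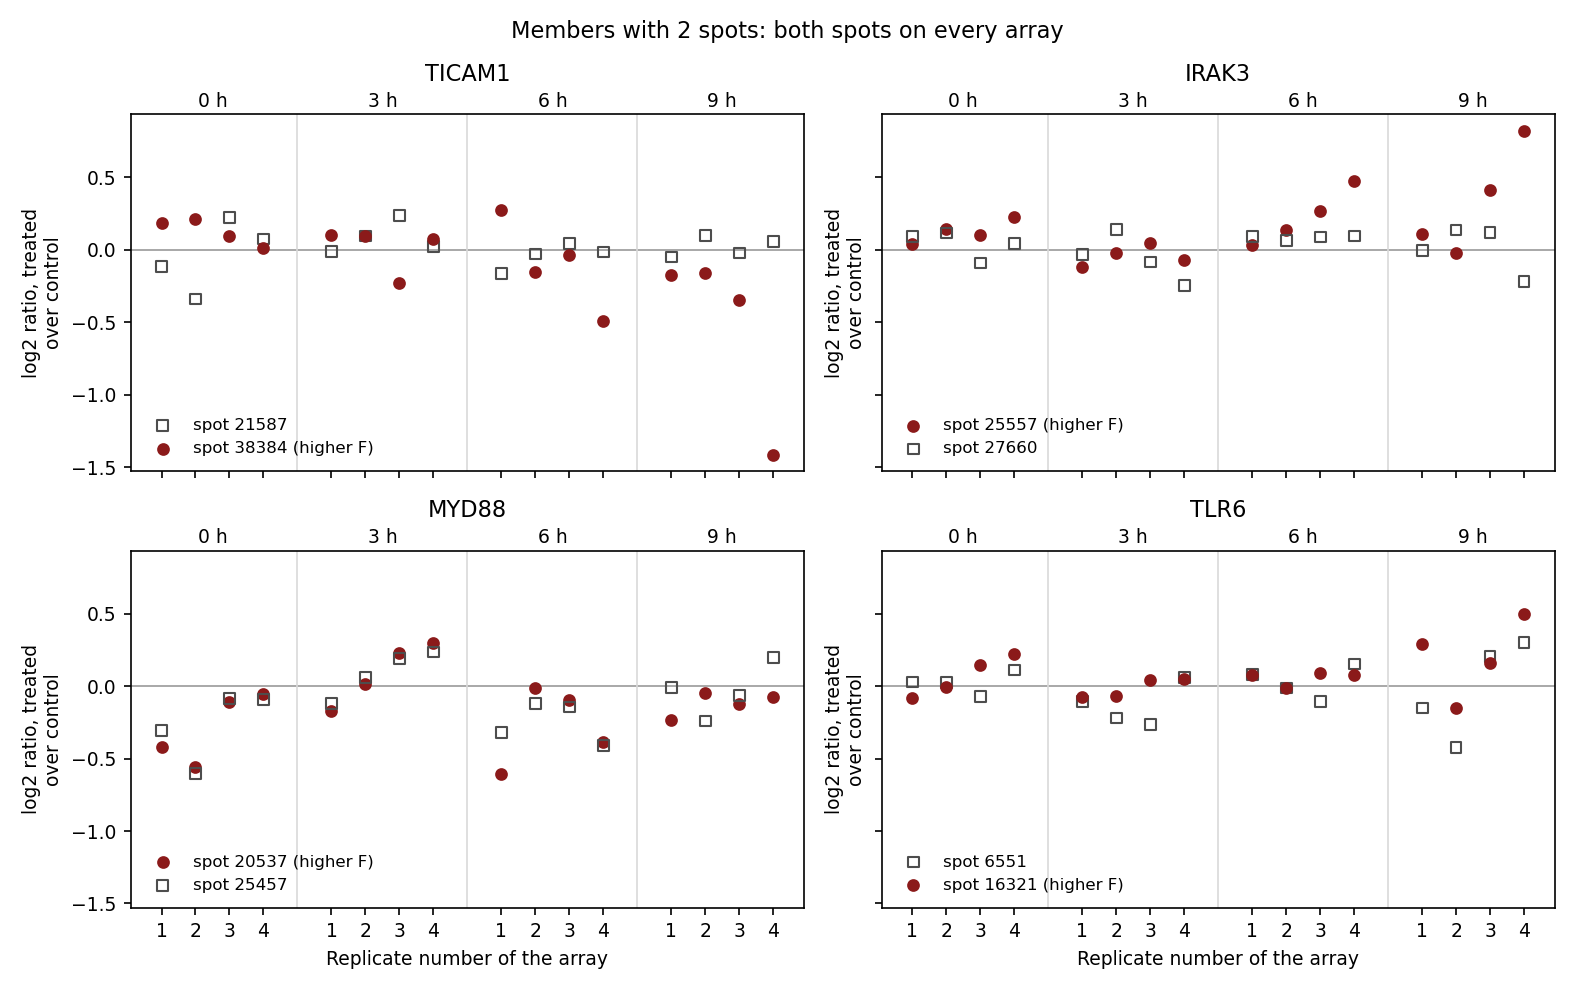
Log2 ratio of treated over control RNA (y axes) of both spots of TICAM1, IRAK3, MYD88 and TLR6 on each of the 16 arrays (x axes, replicates 1 to 4 within 0, 3, 6 and 9 h), with filled circles for the spot of higher F and open squares for the other. On the 9 h array of replicate 4 the TICAM1 spots lie at −1.42 and 0.06 and the IRAK3 spots at 0.82 and −0.22.

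Of the 9 members other than TLR2, none was called at any hour, where a gene was called past a 1.3-fold difference with an adjusted p from limma below 0.05. Of all genes, 0% were called at 0, 3 and 6 h and 0.75% at 9 h (0.375% in each direction). TLR2, chosen for its values at 6 and 9 h, met these thresholds at 9 h, and nothing is read from that. At an unadjusted p under 0.05 with the same fold, none of the 9 passed at 0, 3 or 6 h and 1 at 9 h, TICAM1, beside 0.577, 0.329, 0.727 and 4.93% of all genes at the 4 hours. The median ratio of the 9 members other than TLR2 from 0 to 9 h was 0.05, 0.0023, 0.06 and 0.0061, against −0.0028, −0.0027, −0.0051 and 0.0023 for all genes. Ratios above 0 on all 4 arrays were found among these 9 at 6 h for TLR1, TLR4 and IRAK3, beside 11.2% of all genes, and at 9 h for TLR4, beside 11.8%. Ratios below 0 on all 4 arrays were found at 6 h for MYD88 and TIRAP (11.1% of all genes) and at 9 h for MYD88 and TICAM1 (12.9%). With the mean of each gene's spots, the 4 arrays lay above 0 at 6 h for TLR1 and IRAK3 (9.31% of all genes) and at 9 h for TLR4 and IRAK3 (9.63%), and below 0 at 6 h for MYD88 (9.61%) and at 9 h for TICAM1 (11.1%). Before that, on the highest-F spots, IRAK3 and TICAM1 lay above 0 on all arrays at 0 h (6.14%) and MYD88 below (7.42%), and TLR1 lay below 0 at 3 h (8.33%). None of the 9 differed between 9 h and 0 h or between 9 h and 3 h after adjustment, and neither did any gene, with 3.79 and 4.72% of all genes past the fold at an unadjusted p under 0.05.

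**Figure D4:**
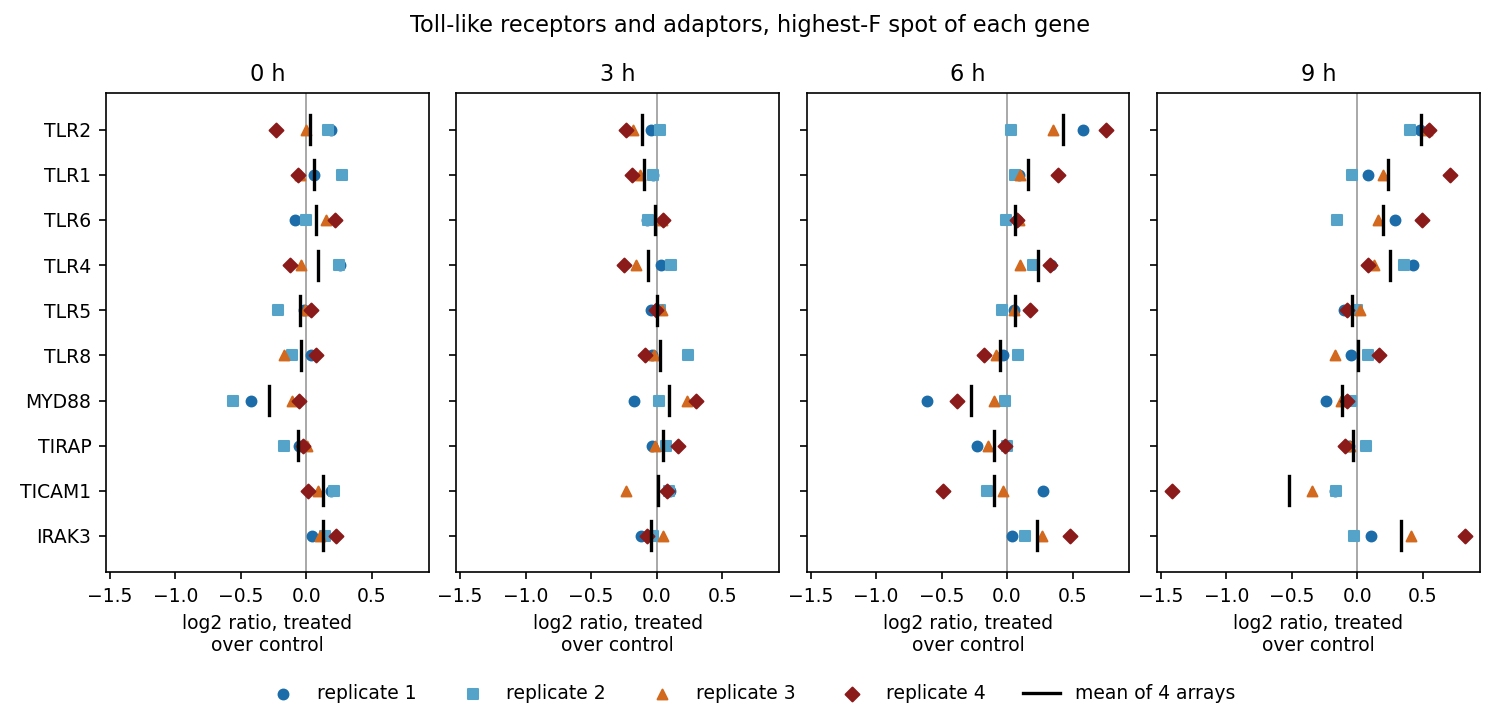
Log2 ratio of treated over control RNA (x axes) of the highest-F spot of each of the 10 members on the 4 arrays of 0, 3, 6 and 9 h, with a marker for each replicate and a black bar for their mean. At 9 h the markers of TLR2 lie between 0.40 and 0.54, and the array of replicate 4 (dark red diamonds) holds the extreme value of TICAM1 (−1.42), IRAK3 (0.82), TLR1 (0.71) and TLR6 (0.50).

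The array of replicate 4 at 9 h held the most extreme value of several members, and its own spread over all spots was the widest of the 16. On the highest-F spots it gave the highest ratio of TLR1, TLR2, TLR6, TLR8 and IRAK3 and the lowest of TICAM1 and TIRAP, while TLR4 had its lowest value there. Replicate 4 was also highest at 6 h for TLR1, TLR2, TLR5 and IRAK3. The part of array quality in these values was not tested.

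The likeness of other genes to TLR2 was described by Pearson's correlation over the 16 arrays after the dye coefficient of each spot was taken off. The arrays share hours, dyes and replicate numbers, and no p-value was drawn. On spot 39317 the 5 genes most like TLR2 were CLDN12 (r = 0.951), a claudin, RGS18 (r = 0.943), a regulator of G protein signalling, TLR4 (r = 0.934), CENPK (r = 0.933), a kinetochore protein, and ENTPD4 (r = 0.931), an intracellular apyrase. TLR4, by spot 17810, thus had rank 3 of all genes with the dye taken off (r = 0.770 with the dye left in), and had r = 0.917 over the 12 arrays without replicate 4. These correlations include the hours by which TLR2 chose the group. Each gene was read on its spot of highest F, a choice that favours large ratios at the treated hours. Spots 39317 and 17810 both stand apart, with r = 0.73 and 0.078 to the median of the other spots of TLR2 and TLR4. Leaving out replicate 4 kept the same spots and hours. The rank is given as a description, and no shared response of TLR2 and TLR4 is read from it. On spot 39317 the members other than TLR4 lay far down the order, with TLR1 at r = 0.718 (rank 786) and IRAK3 at 0.702 (rank 898). MYD88 ran the other way at −0.617. The mean of the 10 spots gave 5 other genes, RNF111 (r = 0.985), KATNAL1 (r = 0.984), MORC3 (r = 0.983), NAB1 (r = 0.981) and EXO1 (r = 0.981). With it, TLR1 stood at r = 0.928 (rank 170), TLR4 at 0.909 (rank 279) and TICAM1 at −0.879. Without replicate 4 those correlations were 0.726, 0.735 and −0.577. The first 5 genes thus changed entirely with the choice of spot.

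The other receptors of the family were near 0 or uneven. TLR3, the sensor of double-stranded RNA, had a mean of 0.0044 at 9 h, and TLR7, a sensor of single-stranded RNA, one of −0.10, with −0.67 in replicate 2, and of −0.03 over its 2 spots. TLR10 stood at −0.29 (adjusted p = 0.236 from limma), with −0.88 in replicate 3 and −0.17, −0.08 and −0.02 in replicates 1, 2 and 4. TLR9 had a mean of 0.0024 at 9 h, and of −0.49 at 0 h through a single value of −1.70 in replicate 4. None of these 4 receptors was called at any hour (0.75% of all genes at 9 h).

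Around the receptors, no gene of the pathway lists passed the test at 3, 6 or 9 h. Of all genes, 0% were called at 3 and 6 h and 0.75% at 9 h, and nothing is read from the absence of calls in these lists. Among the co-receptors and folding factors, 0 of 7 measured genes were called. CNPY3, a chaperone cofactor of the endoplasmic reticulum that helps Toll-like receptors to the cell surface, had the smallest p. It gave an even 0.28, 0.17, 0.27 and 0.29 at 9 h (mean 0.25, standard error 0.065, adjusted p = 0.0675 from limma). The same CNPY3 spot stood at 0.13 at 0 h, and the difference between those hours was 0.12 (adjusted p = 0.674 from limma). The other CNPY3 spots stood at −0.23 and −0.31 at 0 h and at 0.36 and 0.15 at 9 h. The mean of the 3 CNPY3 spots was 0.26 at 9 h. HSP90B1, the partner chaperone of CNPY3, stood at −0.25 at 9 h (adjusted p = 0.330 from limma), with −0.54, −0.11, −0.58 and 0.21 on the arrays. With the mean of its 3 spots HSP90B1 stood at −0.12. Without replicate 4 the HSP90B1 mean was −0.41. CD36, a scavenger co-receptor of TLR2, stood at 0.10 (adjusted p = 0.342 from limma). Of 23 measured kinases, ubiquitin ligases and interferon regulatory factors, none was called. PELI3, a Pellino ligase, stood at 0.20 (adjusted p = 0.0845 from limma) and at 0.13 without replicate 4. IRF7 stood at 0.35, with 0.89 in replicate 4 (adjusted p = 0.0917 from limma), at 0.17 without that array and at 0.21 with the mean of its 2 spots, and TBK1, the kinase that activates IRF3, at 0.24 (adjusted p = 0.129 from limma).

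Of 11 negative regulators, none was called (0.75% of all genes at 9 h). ATF3, a transcription factor that represses cytokine genes, lay below 0 on all 4 arrays at 9 h, at −0.24, −0.35, −0.96 and −0.42 (mean −0.49, standard error 0.13, adjusted p = 0.0664 from limma). TNFAIP3, the ubiquitin-editing enzyme A20, lay above 0 on all 4, at 0.26, 0.18, 0.23 and 2.56 (mean 0.81, standard error 0.33, adjusted p = 0.207 from limma). The mean of TNFAIP3 was 0.22 without replicate 4. TRAF4 stood at −0.11. Among the 7 interleukin-1 family receptors, which share the intracellular TIR domain, IL1RAP, the accessory chain of the interleukin-1 receptor, gave 0.53, 0.16, 0.49 and 2.02 (mean 0.80, adjusted p = 0.0835 from limma), 0.39 without replicate 4, and 0.31 with the mean of its 4 spots. IL18RAP stood at −0.33, with −0.94 in replicate 4 and a mean of −0.12 without it, and IL1RL2 at 0.13.

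Of 18 inducible targets of Toll-like receptor signalling, none was called at any hour (0.75% of all genes at 9 h). At 9 h, 2 lay above and 2 below 0 past the fold at an unadjusted p under 0.05 (2.11 and 2.82% of all genes). CCL2, a chemokine that attracts monocytes, lay below 0 on all 4 arrays at 9 h, at −0.56, −0.43, −0.25 and −1.26 (mean −0.62, standard error 0.16, adjusted p = 0.0647 from limma), with a mean of −0.60 over its 10 spots and of −0.41 without replicate 4. IL1B, the precursor of interleukin-1 beta, gave −0.17, −0.26, −0.32 and −1.25 (mean −0.50, adjusted p = 0.0865 from limma), −0.43 over its 10 spots and −0.25 without replicate 4. NFKBIA, the NF-kB inhibitor that NF-kB itself induces, gave 0.59, 0.12, −0.05 and 1.13 (mean 0.45, adjusted p = 0.161 from limma), and 0.22 without replicate 4. CCL3, another chemokine, had the highest mean of the 18 targets at 9 h, 0.51 (standard error 0.21, adjusted p = 0.206 from limma). The median of the 18 targets at 9 h was −0.02. Of these targets, 7 had a mean above 0 at 9 h and 11 a mean below it. The differences between the targets and the receptors were not tested.

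**Figure D5:**
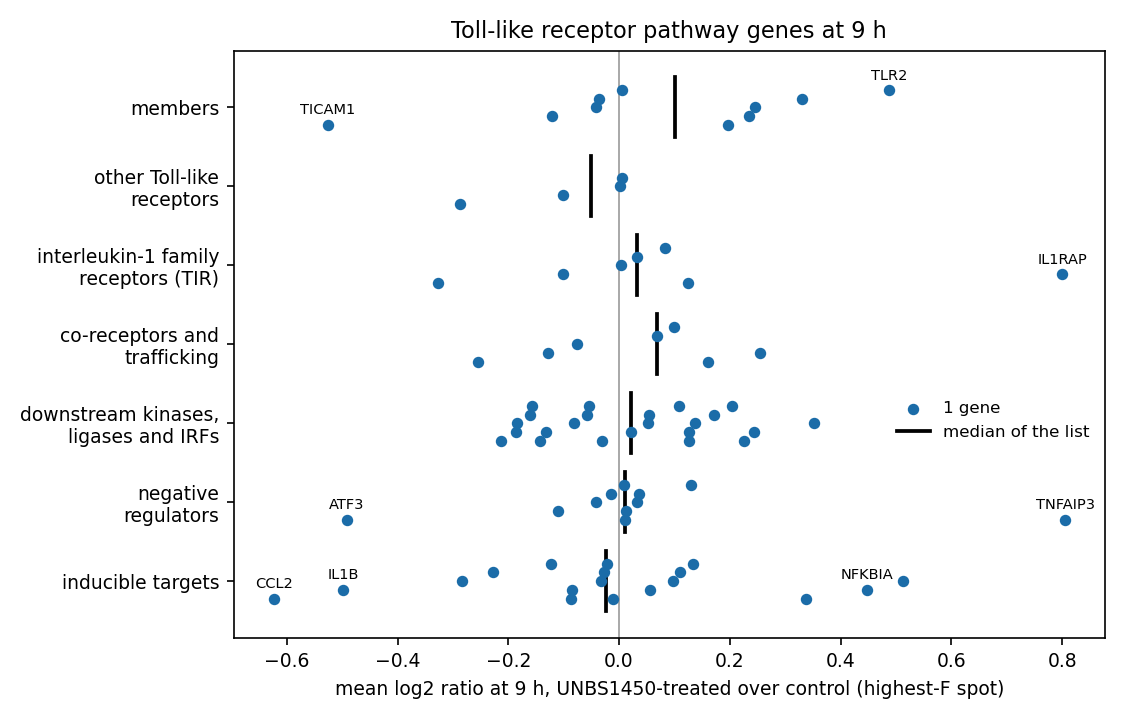
Mean log2 ratio of treated over control RNA at 9 h (x axis) of the highest-F spot of each measured gene, a point per gene, in the list of members and 6 lists of pathway genes (rows), with a black bar for the median of each list. TLR2 (0.49) and TICAM1 (−0.53) are the highest and lowest members, and the list medians lie between −0.05 and 0.10. The highest median is that of the members, and it is 0.0061 without TLR2, whose ratio at this hour chose the group.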

How the data were processed

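RNA was measured on 16 two-colour whole-genome Agilent arrays. Spots were read by the authors in GenePix Pro, and per their methods the authors corrected background with normexp and normalized with limma by loess within and Aquantile between arrays, giving, as deposited, the log2 of Cy5 signal divided by Cy3 signal for each spot. Among 45220 spots, 4657 had no value and were left out, and 11507 without a listed symbol and 86 with several were left out of the gene results. For replicates 3 and 4 the sign was changed, so that every ratio is treated over control. A limma 3.58.1 model (R 4.3.3) with 1 coefficient per hour was fitted to all 16 arrays (residual degrees of freedom 12, prior 3.29), with Benjamini-Hochberg adjustment over the 28970 spots with a single gene, per hour. The authors' spot weights and intensities, which their methods use, were not used here. Genes with several spots are given by the spot with the highest F, as in the methods, here over 3, 6 and 9 h, and by all spots. The fit was tested on simulated data with independent noise and, for each spot, the same spread on all arrays. That setting leaves out the correlation by dye orientation and the wider 9 h array of replicate 4. The labels call the arrays biological replicates, their number limits the precision, and p-values measure the spread between these arrays.

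The members, the pathway lists and the tests were chosen with earlier results of these data known. Named genes are all members, up to 3 genes per list with the smallest p at 9 h with any called, and the 5 genes most like TLR2. TLR9, CCL3 and the spots that stand apart were named after their values were seen. The 22 alternatives covered dye, replicate block, robust regression, array weights, scaling, spot choice, adjustment and replicates left out. LY96, LBP, IRAK4, RIPK1, PIK3AP1, CD33, FCGR1A and MS4A1 were not analysed here. Promoter stretches come from RefSeq (GRCh38.p14). Gene coordinates are of that build, and the sources used here do not give the place of a probe in its transcript. Figures were drawn with matplotlib 3.10.9, and tables made with pandas 2.3.3.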

Additional observations from a re-analysis of the deposited data

Results flagged for a closer look

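Of 68 sets of 4 arrays examined for a value far from the rest, 5 were marked, and chance marks about 1 in 20. TLR1 at 6 h had 0.3875 on the array of replicate 4, against 0.057 to 0.097 on the other arrays. TLR4 at 9 h, as the mean of its 12 spots, had 0.5271 on the array of replicate 4, against 0.060 to 0.12. TICAM1 at 9 h, on spot 38384, had −1.418 on the array of replicate 4, against −0.35 to −0.16. These 3 values are log2 ratios of treated over control RNA, as are the next, and come from replicate 4 at 6 or 9 h. TICAM1 at 3 h, on the same spot, had −0.2313 on the array of replicate 3, against 0.076 to 0.10. TLR6 at 6 h, on its spot of higher F, had −0.009731 on the array of replicate 2, against 0.075 to 0.089, which is a small difference in size.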

How the results depend on the processing

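The log2 ratios of TLR1, TLR4, TLR5, TLR6, MYD88, TICAM1 and IRAK3 at 9 h kept their sign in all 22 alternatives. TLR8 at 9 h changed sign in 5 and TIRAP in 1. The ratio of TLR2 at 9 h, by which the group was chosen, also kept its sign, given as a description. Several alternatives, such as a dye coefficient over all arrays or another adjustment, could not move these means. Apart from the mean of spots, each was read on the spot of highest F in the main fit, so other spots did not enter. At 9 h, 130 genes and 1 member (TLR2) were called. A dye coefficient gave 520 genes and 2 members, and a dye coefficient with a random replicate block 527 genes and 2 members (TLR2 and TICAM1 in both). Robust regression gave 313 genes and 0 members, and it called 5 genes at 3 h, 8 at 6 h and 1 member (TICAM1) between 9 h and 0 h. Array weights, a fit of each hour on its own arrays, and adjustment over 3, 6 and 9 h together each gave 0 genes and 0 members, as did leaving out the 9 h array of replicate 4, an alternative chosen after seeing the data. The mean of all spots gave 0 members, all spots with a value 65 genes, arrays scaled to one spread 77 genes, and no fold threshold 213 genes. Leaving out 1 replicate gave 0 to 61 genes and 0 members at 9 h. With a dye coefficient, leaving out replicates 1, 2, 3 and 4 gave 0, 519, 887 and 161 genes and 0, 2, 2 and 0 members, and without replicate 2 358 genes and 2 members (MYD88 and TLR2) at 6 h. The cause of these changes was not tested, and leaving out 1 replicate unbalances the dyes.

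Replicate numbers are shared between hours, but differences between same-dye replicates correlated between −0.36 and 0.50 from hour to hour, so the numbers were not taken to pair the arrays. With the number as a fixed replicate block, 699 genes and 2 members (TLR2 and TICAM1) were called at 9 h, and as a random replicate block 131 genes and 1 member.

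The files used here hold no intensities, so no bound was set for dim spots. For members with several spots, the spot chosen moves the value, and for TICAM1, IRAK3 and TLR6 the second spot gave a mean near 0 at 9 h.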
